A study of Mus musculus with 8 samples.

Results

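The genes described here encode the receptors through which brain cells sense glutamate, with the auxiliary subunits that travel with AMPA receptors. They were chosen by name: 33 gene symbols, each matched exactly to a row of the deposited table of read counts, out of 25815 genes in that table. The 33 genes comprise 4 AMPA receptor subunits, 7 NMDA receptor subunits, 5 kainate receptor subunits, 1 delta receptor subunit, 6 metabotropic receptors, 6 transmembrane AMPA receptor regulatory proteins (TARPs) and 4 genes of the cornichon and Shisa families. Poly(A)-selected RNA was sequenced from the brains of 5 mice with the Cstf2D50A genotype, called D50A 1 to 5, and of 3 wild-type mice, which the labels call littermates, named WT 1 to 3. CSTF2 belongs to the cleavage stimulation factor, which helps to choose where a messenger RNA is cut and polyadenylated, and the D50A change lies in its RNA recognition motif. The comparison asks whether the level of these transcripts differs between the genotypes. All 8 mice were untreated, were taken at postnatal day 50 and had the strain background C57BL/6NCrl, onto which the allele was backcrossed before breeding within a closed colony. The tissue label of every library is total brain. No label gives the sex, zygosity or batch of a mouse or says which mice shared a litter, and library numbers follow the order of deposit, so they pair no animals.

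Glutamate is the main excitatory transmitter of the brain. AMPA receptors carry the fast current of excitatory synapses, NMDA receptors admit calcium when transmitter release and depolarisation coincide, and kainate receptors tune release and excitability. Metabotropic receptors act through G proteins. TARPs, cornichons and Shisa proteins bind AMPA receptors and set how many reach the surface and how fast they close. The subunits differ in place: in rodents Grin2b and Grin2a dominate the NMDA receptors of the forebrain, Grin2c is best known from cerebellar granule cells, Grm4 is abundant on the axons of granule cells, and Gria4 is prominent in the cerebellum, where Bergmann glia express it.

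The libraries held 13675945 to 24802272 counts, and 3 features of them bear on every value below. D50A 3 stood apart: the mitochondrial genome gave 11.9% of its counts, against 4.08% to 5.14% elsewhere, and its deviation from the WT mean fell with transcript length (Spearman rho of -0.561 over 12438 genes, a description of this library). Each comparison is therefore given with and without D50A 3. Cerebellar transcripts divided the libraries in a way that the genotype does not. The mean of 9 cerebellum markers was 5.57, 5.88, 6.12 and 6.15 log2 CPM (CPM being counts per 1000000 of a library size scaled by the trimmed mean of M values) in D50A 2 to 5 and 1.24 in D50A 1, against 1.25 to 1.53 in WT. Gabra6, which marks granule cells, ranged over 53.2 to 108 CPM in D50A 2 to 5 and was at 0 in D50A 1, against 0, 0.304 and 0.119 CPM in WT 1 to 3. The defining cerebellar markers Gabra6 and Cbln3 were thus at or near 0 in D50A 1 and in all 3 WT libraries, although the label is total brain. The protocol says no more of the dissection than that the total brain was taken. Less cerebellum in the sample, fewer cells of a type and less RNA per cell therefore cannot be told apart, and this holds for every D50A against WT value below. In D50A 1 the deviation from the WT mean rose with the GC content of the transcript (rho of 0.656 over the same genes). Weaker GC trends were found in other libraries, with rho of -0.029, -0.294, -0.203 and -0.387 in D50A 2 to 5. In WT 1 to 3, each set against the other WT libraries, rho was 0.361, 0.11 and -0.448.

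No glutamate receptor or auxiliary subunit gene passed the test between 5 D50A and 3 WT libraries. All 33 genes passed the filter on low counts. With edgeR's quasi-likelihood test, adjusted over 16810 genes at a threshold of 0.05, 0 of 33 were called higher and 0 lower (background 0% and 0% of all genes tested). The smallest adjusted p among the 33 was 0.837, and 0 of 33 had an unadjusted p under 0.05, against 2.499% of all genes. The log2 fold change of D50A over WT was positive for 10 genes and negative for 23, with a median of -0.27 against -0.01 over all genes tested. The median of the 33 was -0.16 in limma-voom and turned to 0.04 in edgeR with the mean of the cerebellum markers as a covariate. DESeq2 called none of the 33 (background 0.238%). limma-voom with quality weights, which weights each library by how closely it follows the fit, called Gria4, Grin2c and Grm4 higher and Cacng8 and Shisa9 lower (background 3.08%).

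D50A 3 was the lowest library for most of the 33 genes. In that library 30 of the 33 genes lay below every WT library and 3 above, while 48.98% of all genes tested lay below and 43.44% above. The summed level of the 33 genes was 2417 CPM in D50A 3 and 4241 to 4499 CPM in the other D50A libraries, against 4557 to 4836 CPM in WT. Grin2b stood furthest out, at 36.5 CPM in D50A 3 against a WT mean of 625 CPM. Grik3, Grm2 and Grin1 were next, at 10.1, 4.07 and 33.5 CPM in D50A 3 against WT means of 115, 43.6 and 286 CPM. The 3 genes above WT were Cnih2, Cnih3 and Gria4. The genes were thus unequal in D50A 3: Grik2 and Cacng7 kept 0.929 and 0.900 of their WT mean in that library, while Grin2b kept 0.0583.

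**Figure D1:**
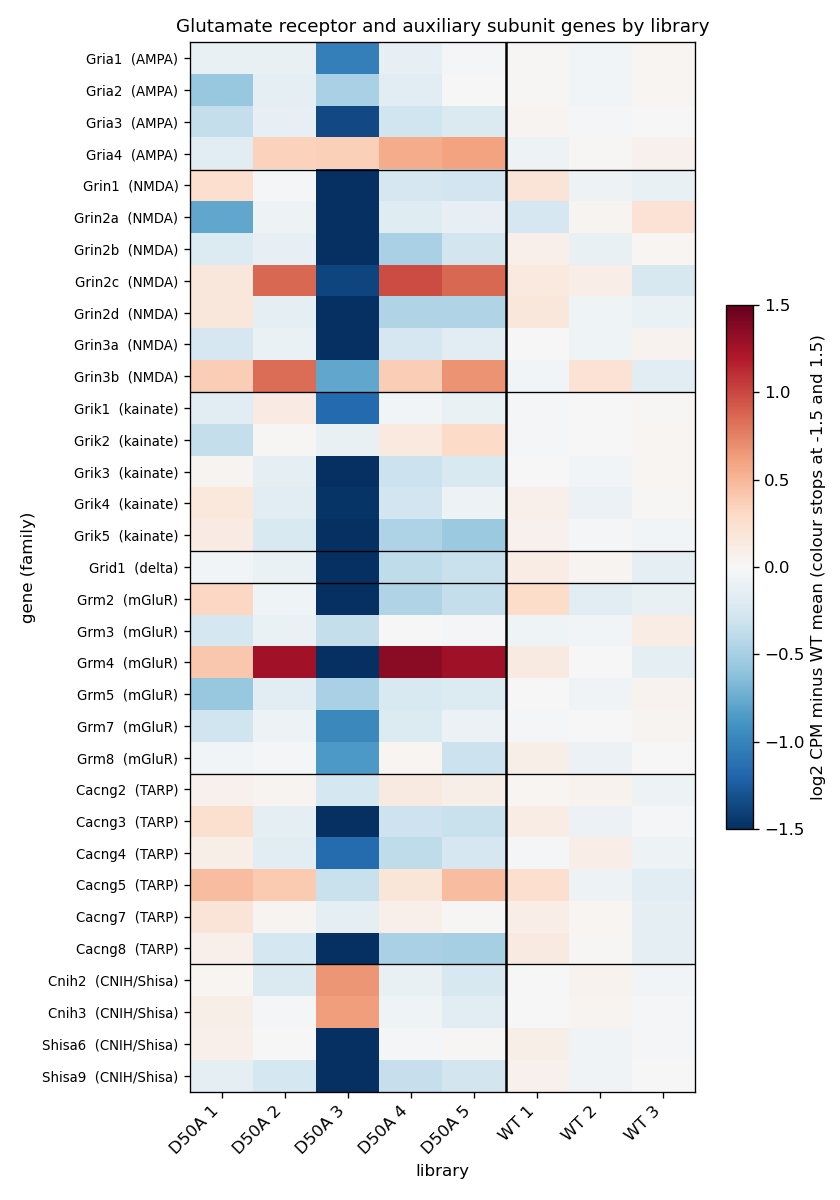
Log2 CPM of each of the 33 genes (rows, by family) in each library (columns) minus the WT mean of that gene; red is above and blue below the WT mean, and colour stops at -1.5 and 1.5. D50A 3 is blue for 30 genes and red for Gria4, Cnih2 and Cnih3, while Grm4, Grin2c and Gria4 are red in D50A 2, 4 and 5.

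Without D50A 3 the 33 genes lay closer to WT and a few leaned apart from the rest. With 4 D50A and 3 WT libraries left, edgeR called 0 of 33 higher and 0 lower (background 0% and 0% of 16754 genes). An unadjusted p under 0.05 was found for 10 of 33 genes, or 30.3%, against 9.395% of all genes tested, and the smallest adjusted p was 0.184, for Grm4. DESeq2 called Grin2c and Grm4 higher (background 0.961%). limma-voom called Gria4, Grin2c and Grm4 higher and Grik5, Cacng8 and Shisa9 lower (background 3.04%). The median log2 fold change was -0.11, against 0.00 over all genes, with 9 positive and 24 negative, and it turned to 0.04 with the covariate. By family the medians were -0.13 for AMPA subunits, -0.18 for NMDA subunits, -0.07 for kainate subunits, -0.10 for metabotropic receptors, -0.01 for TARPs and -0.08 for cornichon and Shisa genes.

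Leaving out D50A 1 as well gave calls in both directions. This comparison sets D50A 2, 4 and 5, all with high cerebellar transcripts, against WT 1 to 3, all with low ones, so genotype and cerebellar content cannot be told apart in it. edgeR called 3 of 33 genes higher (background 3.36% of 16591 genes): Grm4, Grin2c and Gria4. It called 7 of 33 lower (background 3.06%): Grin2b, Grin2d, Grik5, Cacng3, Cacng4, Cacng8 and Shisa9. Cortex and hippocampus markers moved too: 0 of 7 were called higher and 4 lower in the same fit. Their mean over the list was 5.57, 5.38, 3.99, 5.19 and 5.25 log2 CPM in D50A 1 to 5, against 5.52 to 5.62 in WT, and their part in the lower calls was not tested. With the mean of the cerebellum markers as a covariate and without D50A 3, the log2 fold changes of Grin2d, Grik5, Cacng3, Cacng4 and Cacng8 turned positive, none of them past edgeR's threshold, while those of Grin2b and Shisa9 stayed negative at -0.19 and -0.14. In that fit D50A 1 is the only D50A library near the marker level of WT, so the genotype term rests largely on D50A 1, where GC-rich transcripts ran high. The GC content of the longest transcript was 54.4% to 65.1% for the 5 genes that turned, and 45.7% and 47.2% for Grin2b and Shisa9. No fit combined the covariate with offsets for GC content, so the part of GC content in these turns was not tested.

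Of the 33 genes, 6 were separated by genotype in every library. All 5 D50A libraries lay below all 3 WT libraries for Gria3, Grin2b, Grin3a, Grm5, Grm7 and Shisa9. That is 6 of 33 genes, or 18.2%, where 4.24% of all genes tested lay below in this way; in the other direction it was 0 of 33, against 3.22%. Without D50A 3 the same 6 genes lay below, as they must with a library left out (background 5.8%). Grm4, Grin2c and Grin3b then lay above, which is 9.09% of the 33 against 4.79% of all genes. The 6 lower genes were shared by all scaling alternatives. The sets that left out any single library kept them by construction, since the CPM values stayed the same. D50A 1, whose cerebellar markers were at the WT level, was below every WT library for each of the 6, as the rule that picked them requires. Over all 33 genes D50A 1 lay below every WT library for 13 and above for 14. Of all genes tested, 32.4% lay below and 31.84% above in that library. The GC content of their longest transcripts was 39.8% to 49.2%, the side on which D50A 1 ran low, and offsets for GC content left all 6 below WT. None of the 6 passed edgeR's threshold in either comparison that includes D50A 1, and these separations carry no test of their own. With the cerebellum marker mean as a covariate and without D50A 3, edgeR called Gria3, Grm5 and Grm7 lower, together with Gria2, Grin2a and Grik2, and called Grm4 and Cacng5 higher. That is 6 of 33 lower, where 7.35% of all genes tested were called lower, and 2 of 33 higher, against 1.52%, in a fit whose genotype term rests largely on D50A 1.

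Among AMPA receptor genes, Gria3 (chromosome X, 41400854 to 41678601 in mm10) showed that pattern. It had 209, 247, 105, 218 and 231 CPM in D50A 1 to 5 and 275, 262 and 268 CPM in WT 1 to 3. The nearest values were 247 CPM in D50A 2 and 262 CPM in WT 2, so the groups were close at their edges. Without D50A 3 its log2 fold change was -0.23 ± 0.07 (SE, edgeR adjusted p = 0.287), and without D50A 1 and 3 it was -0.19 (edgeR adjusted p = 0.0567). Gria1, which with Gria2 forms the common receptor of hippocampal and cortical principal neurons, had 426, 424, 225, 421 and 452 CPM in D50A and 466, 445 and 468 CPM in WT. Leaving aside D50A 3, Gria1 differed little, with a log2 fold change of -0.08 ± 0.06 (SE, edgeR adjusted p = 0.695). Gria2, whose edited subunit makes the receptor nearly impermeable to calcium, had 531, 721, 563, 706 and 794 CPM in D50A against 800, 767 and 804 CPM in WT. D50A 1 and D50A 3 were the low libraries for Gria2, and D50A 5 lay within the WT range.

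Gria4 went the other way from the rest of its family. It had 127, 183, 185, 212 and 218 CPM in D50A 1 to 5 and 136, 145 and 150 CPM in WT 1 to 3. D50A 2 to 5 were above every WT library and D50A 1 was below them all, the order of the libraries by the cerebellum markers apart from WT 2 and WT 3, which change places. The log2 fold change was 0.37 ± 0.16 (SE) without D50A 3 (edgeR adjusted p = 0.495) and 0.52 ± 0.07 (SE) without D50A 1 and 3 (edgeR adjusted p = 0.000261). With the cerebellum marker mean as a covariate the sign turned to -0.16 without D50A 3.

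Of the NMDA receptor genes, Grin2b and Grin3a were below WT in every D50A library. Grin2b (chromosome 6, 135713233 to 136173511), the early and forebrain GluN2 subunit, had 540, 571, 36.5, 445 and 518 CPM in D50A and 658, 580 and 639 CPM in WT. D50A 2 and WT 2 lay only a few CPM apart, while D50A 4 was the lowest apart from D50A 3. Without D50A 3 the log2 fold change was -0.26 ± 0.08 (SE, edgeR adjusted p = 0.335). Without D50A 1 and 3 Grin2b fell, at -0.28 ± 0.08 (SE, edgeR adjusted p = 0.0391). Grin3a (chromosome 4, 49661611 to 49845744), which lowers calcium entry through the receptors it joins, had 49.3, 54.9, 16.8, 49.6 and 52.9 CPM in D50A and 59.3, 56.5 and 61.2 CPM in WT. Its log2 fold change without D50A 3 was -0.18 ± 0.07 (SE, edgeR adjusted p = 0.407).

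The obligatory subunit did not share that pattern. Grin1 had 338, 279, 33.5, 239 and 232 CPM in D50A and 326, 269 and 262 CPM in WT. D50A 1 was above every WT library, D50A 4 and 5 were below, and D50A 2 lay inside. Grin2a, the mature forebrain subunit, had 21.7, 35.3, 7.49, 32.95 and 34.2 CPM in D50A and 31.3, 38.5 and 43.4 CPM in WT, with D50A 1 low as well as D50A 3. Grin2d, found in interneurons and the brainstem, had 48.8, 39.1, 9.62, 31.5 and 31.5 CPM in D50A and 48.8, 41.3 and 40.2 CPM in WT. Grin2d was at the top of the WT range in D50A 1 and below every WT library in the others, and it fell by 0.34 on the log2 scale without D50A 1 and 3 (edgeR adjusted p = 0.0342).

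Grin2c (chromosome 11, 115249169 to 115267243) was the NMDA receptor gene with the largest positive difference without D50A 3 and without D50A 1 and 3. It had 78.7, 127, 26.8, 138 and 127 CPM in D50A 1 to 5 and 77.6, 74.7 and 59.2 CPM in WT 1 to 3. D50A 2, 4 and 5 lay far above WT, D50A 1 lay just above the highest WT library, and D50A 3 lay below all of them. The log2 fold change was 0.75 ± 0.18 (SE) without D50A 3 (edgeR adjusted p = 0.221), and Grin2c rose by 0.91 ± 0.08 (SE) without D50A 1 and 3 (edgeR adjusted p = 3.85e-06). After offsets for GC content, D50A 1 no longer lay above every WT library for Grin2c. Per base of exon, Grin2c made up 34.0%, 45.03%, 61.5%, 52.9% and 47.9% of the summed GluN2 genes in D50A 1 to 5, against 30.2%, 31.9% and 25.6% in WT. Grin2b made up 47.4%, 41.0%, 17.0%, 34.4% and 39.6% in D50A, against 52.0%, 50.2% and 56.0% in WT. The leading GluN2 gene was thus Grin2b in D50A 1 and in WT but Grin2c in D50A 2 to 5. In D50A 3 both genes lay below every WT library, Grin2c at 0.381 and Grin2b at 0.0583 of the WT mean. The share in that library therefore does not show a rise of Grin2c. Grin3b was near the floor, with 19, 21, 3, 14 and 19 counts in D50A and 11, 13 and 8 counts in WT, and 32.1% of its exon bases are shared with Tmem259 on the other strand.

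The promoters of Grin2c and Gria4 are shown because both genes were above every WT library in D50A 2, 4 and 5, which have high cerebellar transcripts. Grin3b was above WT in them too, but near the floor, and its promoter is not shown. RefSeq promoters, which cover 250 bases before to 50 after a start on GRCm38.p6, matched 21 of the 33 genes, and Grm4 had no entry. The window of Grin2c lies at chr11:115267194-115267493 and that of Gria4 at chr9:4796185-4796484, both on the minus strand. Capitals mark matches to the GC box GGGCGG on either strand, some of which overlap by 1 base.
Grin2c: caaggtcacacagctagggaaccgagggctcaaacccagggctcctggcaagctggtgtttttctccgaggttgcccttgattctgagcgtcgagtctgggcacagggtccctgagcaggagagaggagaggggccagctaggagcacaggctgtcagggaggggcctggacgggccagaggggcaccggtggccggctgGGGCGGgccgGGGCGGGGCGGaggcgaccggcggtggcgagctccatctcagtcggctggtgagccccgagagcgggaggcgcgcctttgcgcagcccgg
Gria4: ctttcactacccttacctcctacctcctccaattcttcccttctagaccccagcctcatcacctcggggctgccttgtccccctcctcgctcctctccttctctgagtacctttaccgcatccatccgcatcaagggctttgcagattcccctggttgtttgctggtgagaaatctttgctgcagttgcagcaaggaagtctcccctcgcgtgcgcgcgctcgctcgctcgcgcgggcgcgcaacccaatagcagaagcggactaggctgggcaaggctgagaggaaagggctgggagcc
Grin2c held 3 matches and Gria4 held 0, while 35.66% of 32851 RefSeq promoters held at least 1 and 10.71% held at least 3. The nuclear factor I motif TTGGC, searched on both strands, was in neither window and in 46.71% of all promoters. A match or its lack describes these letters only.

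**Figure D2:**
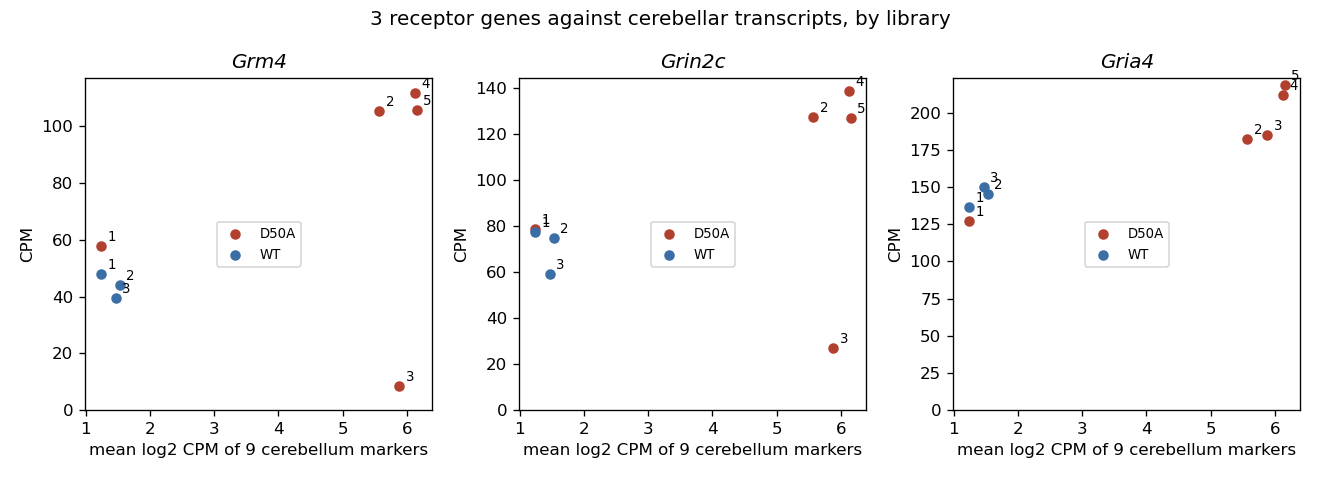
CPM of Grm4, Grin2c and Gria4 (vertical axes, from 0) against the mean log2 CPM of 9 cerebellum markers (horizontal axes), with 1 point per library, numbered, D50A in red and WT in blue. D50A 2, 4 and 5 sit at high marker means and high receptor levels, D50A 1 sits with WT at a marker mean of 1.24, and D50A 3 has high markers but low Grm4 and Grin2c.

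Grm4 (chromosome 17, 27422387 to 27521403), a presynaptic metabotropic receptor that dampens release, had the largest log2 fold change of the 33 genes in each of the 3 comparisons. It had 57.9, 105, 8.42, 112 and 106 CPM in D50A 1 to 5 and 48.0, 44.1 and 39.6 CPM in WT 1 to 3. D50A 1 was above every WT library, by more than the WT SD of 4.21 CPM, D50A 2, 4 and 5 were far above, and D50A 3 was below. The log2 fold change was 0.83 ± 0.66 (SE) over all libraries (edgeR adjusted p = 0.837), and 1.13 ± 0.20 (SE) without D50A 3 (edgeR adjusted p = 0.184). Without D50A 1 and 3 Grm4 rose by 1.31 ± 0.07 (SE, edgeR adjusted p = 5.7e-09). Per base of exon, Grm4 made up 14.9%, 22.1%, 3.29%, 23.8% and 22.7% of the 6 metabotropic receptor genes in D50A, against 10.6%, 10.3% and 8.73% in WT. In D50A 1, with Gabra6 at 0, Grm4 was at 1.32 times its WT mean, and in D50A 2, 4 and 5 at 2.40 to 2.55 times. The GC content of its longest transcript was 61.7%, the side on which D50A 1 ran high. After offsets for GC content and without D50A 3, Grm4 still lay above every WT library in each D50A library. The part of cerebellar RNA in the difference was not tested beyond the covariate fit.

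Grm5 and Grm7 lay below WT in every D50A library. Grm5 (chromosome 7, 87584168 to 88134907), the postsynaptic receptor that couples to phospholipase C, had 169.1, 224, 179, 215 and 219 CPM in D50A and 253, 242 and 261 CPM in WT. D50A 1 and D50A 3 were the lowest, and the gap between the highest D50A and the lowest WT value was wider than the WT SD of 9.51 CPM. Grm5 had the smallest unadjusted p of the 33 genes over all libraries, 0.0651, with a log2 fold change of -0.32 ± 0.15 (SE, edgeR adjusted p = 0.837). Without D50A 3 it was -0.27 ± 0.10 (SE, edgeR adjusted p = 0.389). Grm7 (chromosome 6, 110645581 to 111567230), a low-affinity receptor of the presynaptic active zone, had 52.1, 60.6, 32.6, 55.4 and 60.1 CPM in D50A and 62.5, 63.5 and 65.5 CPM in WT. The gap between the groups was small for Grm7, and its log2 fold change without D50A 3 was -0.15 ± 0.07 (SE, edgeR adjusted p = 0.55). The other metabotropic receptors, Grm2, Grm3 and Grm8, overlapped between the genotypes, with log2 fold changes of -0.11, -0.09 and -0.08 without D50A 3.

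**Figure D3:**
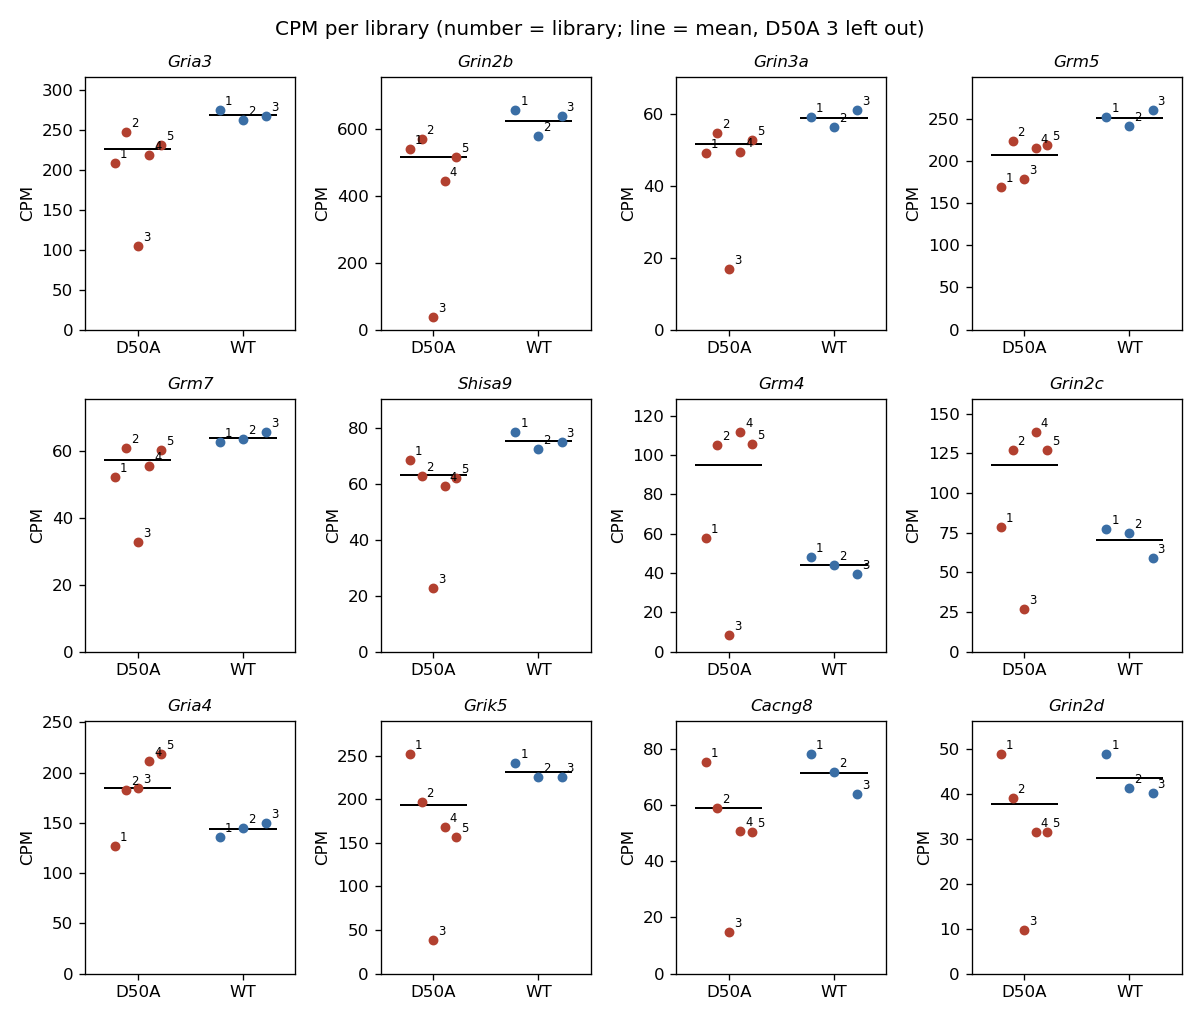
CPM per library (vertical axes, from 0) for 12 receptor and auxiliary subunit genes, D50A in red to the left of WT in blue; numbers name the libraries and lines mark group means, with D50A 3 left out of the mean. For Gria3, Grin2b, Grin3a, Grm5, Grm7 and Shisa9 every D50A point lies below every WT point, and D50A 3 is the lowest point for each of them but Grm5.

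Among auxiliary subunits, Shisa9 (chromosome 16, 11984113 to 12270902), which slows recovery of AMPA receptors from desensitisation, was the gene below WT in every D50A library. It had 68.6, 62.9, 22.6, 59.3 and 62.0 CPM in D50A and 78.6, 72.6 and 75.0 CPM in WT. The log2 fold change was -0.24 ± 0.07 (SE) without D50A 3 (edgeR adjusted p = 0.264). Without D50A 1 and 3 Shisa9 fell by 0.28 ± 0.06 (SE, edgeR adjusted p = 0.00849). Shisa6, its relative that keeps receptors at the synapse, had 34.5 to 37.3 CPM in the D50A libraries other than D50A 3, against 33.9 to 37.4 CPM in WT, and a log2 fold change of 0.03 ± 0.06 (SE) without D50A 3 (edgeR adjusted p = 0.936).

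The TARPs split by library. Cacng8, or γ-8, the main TARP of the hippocampus, had 75.1, 58.9, 14.9, 50.7 and 50.3 CPM in D50A and 78.0, 71.7 and 63.9 CPM in WT. D50A 1 lay within the WT range and the other 4 lay below it. Cacng8 fell by 0.40 on the log2 scale without D50A 1 and 3 (SE 0.08, edgeR adjusted p = 0.00506). For Cacng3 and Cacng4 too, D50A 2 to 5 lay below WT and D50A 1 did not. Cacng3 had 82.1, 63.4, 15.6, 56.2 and 55.3 CPM in D50A against 75.2, 65.3 and 68.6 CPM in WT. Cacng4 had 53.8, 45.3, 22.6, 38.7 and 42.4 CPM in D50A against 49.8, 54.1 and 48.0 CPM in WT. Both fell without D50A 1 and 3, by 0.24 and 0.25 on the log2 scale (edgeR adjusted p = 0.0458 and 0.0398). Cacng2, or stargazin, the TARP that cerebellar granule cells depend on, had 87.97 to 93.92 CPM in D50A apart from D50A 3, against 81.3 to 88.3 CPM in WT. Cacng5 leaned upward, with 20.9 to 25.5 CPM in D50A apart from D50A 3 against 16.4 to 21.99 CPM in WT, and a log2 fold change of 0.38 ± 0.11 (SE, edgeR adjusted p = 0.29).

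Kainate and delta receptor genes overlapped between the genotypes when D50A 3 was left out. Grik5, a high-affinity subunit that needs a partner to form channels, had 252, 197, 38.9, 167.8 and 157 CPM in D50A and 242, 226 and 225 CPM in WT. D50A 1 was the highest library of all for Grik5 and the other D50A libraries were below WT. It fell by 0.39 ± 0.07 (SE) on the log2 scale without D50A 1 and 3 (edgeR adjusted p = 0.00424). The other 4 kainate genes had log2 fold changes of -0.14 to 0.05 without D50A 3, none past the threshold. Grid1, a delta receptor gene whose protein binds cerebellins rather than acting as a usual glutamate channel, had 53.2 to 67.2 CPM in D50A apart from D50A 3, against 62.5 to 74.8 CPM in WT. Its log2 fold change was -0.20 ± 0.10 (SE) without D50A 3 (edgeR adjusted p = 0.56). Without D50A 1 and 3 it was -0.26 ± 0.08 (SE, edgeR adjusted p = 0.0652).

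Levels per length put auxiliary subunits among the most abundant transcripts of the group. In FPKM (CPM divided by the length in kilobases of the union of annotated exons), Cnih2 led at 141 ± 12.2 in D50A without D50A 3 and 155 ± 4.95 in WT (SD, n = 4 and 3). Cacng7 followed at 82.4 ± 4.70 FPKM in D50A and 77.9 ± 6.48 FPKM in WT, then Gria1 at 71.3 ± 2.32 FPKM in D50A and 76.0 ± 2.10 FPKM in WT. Cacng7 and Gria1 did not differ from each other in WT by more than their spread. Gria2 at 44.3 ± 7.16 FPKM in D50A and 50.8 ± 1.32 FPKM in WT led the rest, with Grik5 next among the pore-forming subunits. Between Grin1 at 29.4 FPKM and Gria4 at 22.8 FPKM in WT lay a run of genes whose neighbours were mostly within their spread. The lowest were Grin2a, Grm8 and Grin3b, at 2.10, 1.71 and 0.168 FPKM in WT. With the length of the longest transcript in place of the exon union the top 4 kept their order, while Grin1 moved to rank 5 in WT, against rank 7.

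**Figure D4:**
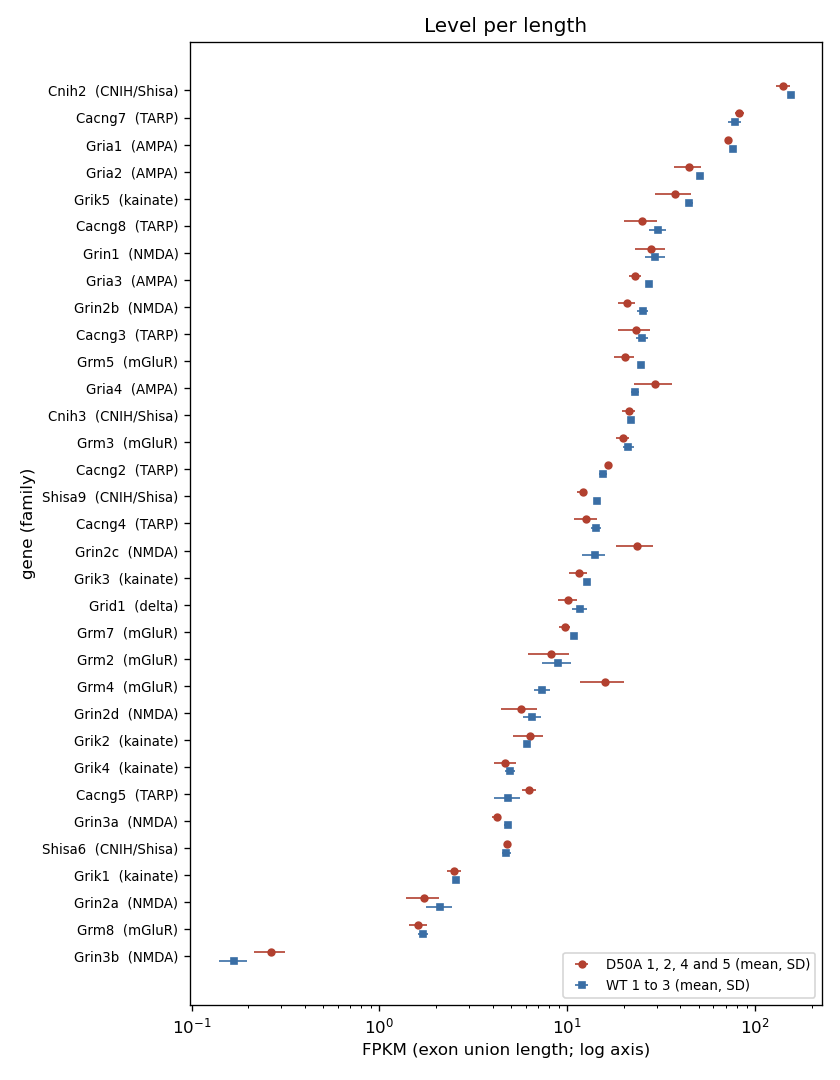
FPKM of the 33 genes on a log axis, ordered by the WT mean, as mean and SD of D50A 1, 2, 4 and 5 (red circles) and WT 1 to 3 (blue squares). Cnih2 is highest at 141 in D50A and 155 in WT and Grin3b lowest at 0.264 in D50A and 0.168 in WT, and Grm4 and Grin2c show the widest gaps between the genotypes among the more abundant genes.

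Transcript composition tracked some of the variation within D50A. In D50A 1 the deviations of the 33 genes from the WT mean rose with GC content of the longest transcript (Spearman rho of 0.819 over 33 genes), from -0.78 for Grin2a to 0.46 for Cacng5 on the log2 scale. In D50A 2 to 5 the rho over the same genes ran from -0.251 to -0.022. The WT libraries, each compared with the average of the remaining WT libraries, had 0.437, 0.231 and -0.738, so WT was not free of such a trend. These are descriptions over genes of single libraries that share depth and preparation. The 6 genes below WT in every D50A library also lay below after offsets for GC content, a choice made after seeing the data, and Gria2, Grik3 and Cacng8 joined them. The share of all genes below WT in this way was 5.37% after the offsets with 8 libraries and 6.89% without D50A 3. Above WT lay 0 of 33 with 8 libraries (4.37% of all genes), and Grm4 and Grin3b without D50A 3 (6.17%).

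**Figure D5:**
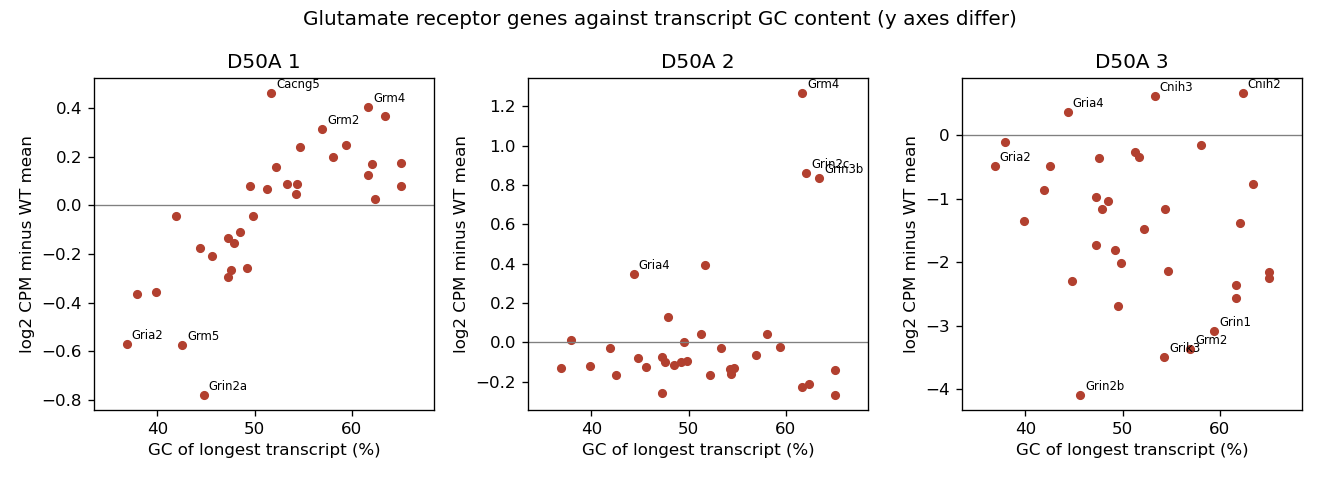
Log2 CPM minus the WT mean (vertical axes, which differ) against GC content of the longest transcript in percent (horizontal axes) for the 33 genes in D50A 1, 2 and 3. The points rise with GC content in D50A 1 (rho of 0.819), are flat in D50A 2 apart from Grm4, Grin2c, Grin3b and a few others, and are mostly negative in D50A 3.

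Genes that serve the same synapses were read from the same fits: scaffolds, transporters, secreted synaptic organisers and G protein effectors. Of 40 listed, 39 were in the table and tested. edgeR called none over all libraries or without D50A 3, where 4 and 11 of the 39 had an unadjusted p under 0.05. That is 10.26% and 28.21%, against 2.499% and 9.395% of all genes. Without D50A 3 DESeq2 called Cbln1 and Slc1a6 higher and Slc1a2 lower (background 0.961%). In that comparison limma-voom called 4 of the 39 higher, among them Cbln1, Slc1a6 and Homer3 (background 3.04% in either direction). It called 4 lower: C1ql2, Homer2, Nptx2 and Slc1a2. With all 8 libraries limma-voom called these 7 named genes too (background 3.08%). DESeq2 then called Cbln1 and Slc1a6 higher and none lower (background 0.238%). Without D50A 1 and 3 edgeR called 7 of 39 higher and 9 lower, against 3.36% and 3.06% of all genes. The higher ones included Cbln1, Homer3, Slc1a6, Plcb4 and Neto2. Cbln1, a synaptic organiser that granule cells secrete, had 28.3, 148, 184, 190 and 183 CPM in D50A and 23.0, 25.7 and 24.2 CPM in WT. Slc1a6, the glutamate transporter of Purkinje cells, had 10.05, 20.6, 16.3, 17.8 and 20.4 CPM in D50A and 8.61, 8.96 and 7.13 CPM in WT. For both genes D50A 1 was the D50A library nearest to WT, but it lay above every WT library. Every D50A library thus lay above every WT library, as for 3.22% of all genes tested. Homer3 rose by 1.37, Plcb4 by 0.30 and Neto2, a kainate receptor partner, by 0.26 on the log2 scale without D50A 1 and 3.

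The lower ones were Nptx2, Slc1a2, Nptxr, C1ql2, Grip2, Shisa7, Gsg1l, Homer2 and Plcb1. Slc1a2, the main glutamate transporter of forebrain astrocytes, had 2433, 2314, 760, 2223 and 2181 CPM in D50A and 2800, 2638 and 2758 CPM in WT, every D50A library being below every WT library. Homer2, a scaffold that links Grm5 to calcium stores, was likewise below WT throughout, with 76.6, 85.7, 62.4, 84.6 and 86.3 CPM in D50A and 97.1, 100.1 and 100.9 CPM in WT. Plcb1, the phospholipase downstream of Grm5, had 162, 187, 90.3, 155 and 160 CPM in D50A and 212, 192 and 198 CPM in WT, with no overlap. Without D50A 3 their log2 fold changes missed edgeR's threshold, with adjusted p of 0.219 for Slc1a2, 0.264 for Homer2 and 0.285 for Plcb1. Of all genes tested, 4.24% lay below WT in every D50A library. Homer1 and Gnaq, of the same list, overlapped between the genotypes, with log2 fold changes of -0.09 and -0.05 without D50A 3. A shared change of Grm5 and these genes was not tested. Nptx2, an activity-regulated pentraxin that gathers AMPA receptors, fell by 0.62 without D50A 1 and 3 (edgeR adjusted p = 0.00264).

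Some counts may include reads of neighbouring genes, since no source used here states whether counting was stranded. In the GENCODE M21 annotation Grin1 shares 13.5% of its exon bases with another gene, Grin2d 9.66%, Grm2 9.60% and Cacng2 5.86%, and the other genes that share any have at most 3.88%, apart from Grin3b above.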

How the data were processed

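The authors deposited 1 table of 25815 genes, whose values are unscaled whole-number read counts, as the file shows. The tools named by the submitters' processing notes are STAR 2.5, HTSeq 0.6.1, CASAVA 1.8 and DESeq2 2, on mm10. Neither the annotation release nor the strandedness of counting is given in the sources used here. Every library came from its own mouse, per the labels, so the spread behind each p-value mixes animals, RNA and dissection. The deposited counts per library, and so the precision, ran from 13675945 to 24802272.

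Groups follow the genotype label. Counts were tested over all genes with edgeR 4.0.16 in R 4.3.3 (quasi-likelihood test, filterByExpr, TMM scaling, Benjamini-Hochberg adjustment, threshold 0.05, no covariate), with all 8 libraries, without D50A 3, and without D50A 1 and 3. CPM values use the TMM-scaled sizes of all 8 libraries, log2 CPM adds a prior count of 2, and each SE was taken as the absolute log2 fold change divided by the root of the F statistic. FPKM uses exon unions of GENCODE M21 (mm10), to which 25484 genes matched by identifier. Alternatives were DESeq2 1.42.0, limma 3.58.1 voom with quality weights, other scalings and filters, a cerebellum marker covariate, each library left out and, added after seeing the data, offsets for GC content. The tests were tried on simulated counts first. The genes, lists, tests and the marker lists were chosen with earlier results of these data known. Values in every library are given for the AMPA and NMDA subunit genes, for genes called in any of the 3 comparisons or separated by genotype, and for those with the smallest p. Shisa8 and Drd1 of the lists were not under those symbols, and some genes of the list of other synaptic genes are counted in its totals but not reported here.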

Additional observations from a re-analysis of the deposited data

Results flagged for a closer look

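In the D50A group of 5 libraries, 19 of the 33 genes had a library further from its neighbour than Dixon's critical value of 0.71 allows, judged on log2 CPM. Chance alone flags about 1 in 20 groups. In each of the 19 the outlying library was D50A 3, and it was the lowest. The ionotropic receptor genes were Gria1 at 224.7 CPM, Gria3 at 105 CPM, Grin1 at 33.5 CPM, Grin2b at 36.5 CPM, Grin2d at 9.62 CPM, Grin3a at 16.8 CPM, Grik1 at 7.59 CPM, Grik3 at 10.1 CPM, Grik4 at 10.5 CPM, Grik5 at 38.9 CPM and Grid1 at 17.0 CPM. The metabotropic receptor genes were Grm2 at 4.07 CPM, Grm4 at 8.42 CPM and Grm7 at 32.6 CPM. The auxiliary subunit genes were Cacng2 at 71.2 CPM, Cacng3 at 15.6 CPM, Cacng8 at 14.9 CPM, Shisa6 at 5.37 CPM and Shisa9 at 22.6 CPM. D50A 3 also had the highest share of mitochondrially encoded counts, 11.9%, and the smallest depth, and their part in these values was not tested.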

How the results depend on the processing

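The groups are small and 1 library weighs heavily, so a p that misses the threshold does not show that a gene is unchanged. With all 8 libraries DESeq2 called 34 genes higher and 6 lower over the whole table, and limma-voom 315 and 202, with 3 and 2 of the 33. Without D50A 1 and D50A 3 edgeR called 558 higher and 507 lower, with 3 and 7 of the 33. Leaving out single libraries gave 0 to 26 genes higher and 0 lower, and 0 of the 33. Without D50A 3 there were more changes. Upper-quartile factors, and likewise a threshold of 0.1, gave 1 gene higher. DESeq2 called 120 higher and 41 lower, with 2 of the 33 higher, and limma-voom 309 and 200, with 3 and 3 of the 33. No filter on low counts gave 71 higher and 14 lower, with 2 of the 33 higher. The cerebellum covariate gave 254 higher and 1232 lower, with 2 and 6 of the 33 and a median of 0.0423. Offsets for GC content with D50A 1 also left out gave 676 and 654, with 4 and 11 of the 33. Leaving out single libraries gave 0 to 558 higher and 0 to 507 lower, with 0 to 3 and 0 to 7 of the 33, the upper ends all without D50A 1. Of the 33, 0 to 3 lay above WT and 6 to 12 below over single libraries left out of 8, where 3.83% to 8.15% of all genes lay above and 4.81% to 11% below. Left out of 7 it was 3 to 4 above and 6 to 14 below, against 6.11% to 11.5% and 7.1% to 13.8%. The highest shares of all genes, and the most of the 33 below, came without D50A 1. With unchanged CPM values, leaving out a library cannot lower these counts, so their lower ends were fixed in advance.

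Of 1219 log2 fold changes of the 33 genes under alternatives, 26 turned sign by over 1 SE, and 21 more did so by less, over 10 genes. With all 8 libraries, limma-voom gave -0.177 for Cnih2 and -0.0809 for Cnih3, and leaving out D50A 1 and D50A 3 gave -0.174 for Cnih2. The cerebellum covariate gave -0.166 for Gria4, 0.22 for Grin1, 0.155 for Grin2d, -0.36 for Grik2, 0.125 for Grik4, 0.0975 for Grik5, 0.287 for Grm2, 0.207 for Cacng3, 0.0622 for Cacng4 and 0.0502 for Cacng8. With the covariate and without D50A 3 it was -0.163 for Gria4, 0.249 for Grin1, 0.17 for Grin2d, -0.355 for Grik2, 0.0423 for Grik3, 0.147 for Grik4, 0.122 for Grik5, 0.306 for Grm2, 0.231 for Cacng3, 0.0756 for Cacng4, 0.0707 for Cacng8, 0.011 for Cnih2 and 0.0855 for Cnih3. The cause was not tested.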
